A study of Homo sapiens with 8 samples.

Results

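The snoRNA host and abundant noncoding transcripts are described here across barcode populations, libraries and cells of different mitochondrial share in HMLE, a line of immortalised epithelial cells from the human breast. The members were the genes whose symbol starts with SNHG, together with GAS5, ZFAS1, EPB41L4A-AS1, NEAT1, MALAT1, FTX, MIR222HG, MIR205HG, OIP5-AS1 and NORAD, with at least 20 UMIs (unique molecular identifiers, each standing for 1 captured molecule) in the 4 mRNA libraries together. Of the 36601 genes counted, 38 matched by symbol and 37 were members, because SNHG28 had 4 UMIs. The study asked about metastable intermediates of epithelial-to-mesenchymal transition in these cells and the part of G-quadruplex DNA in them. It labelled 12 samples with short barcoded oligonucleotides, SBO01 to SBO12, pooled them in equal numbers and counted transcripts with a single-cell 5′ kit in 4 mRNA libraries, each with a matching barcode library, 8 samples in all. The labels tie no barcode to a treatment, a time or a culture, so barcode populations are described and not tested, and no treated cells are set against untreated ones. Tests are between cells of the same library grouped by mitochondrial share, the percentage of a cell's UMIs that come from the mitochondrial genome. Cells under 0.5% and cells from 4 to 15% are each set against cells from 1 to 2% of the same line, kit and pools.

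A noncoding snoRNA host gene is transcribed and spliced, and its introns are trimmed to small nucleolar RNAs that guide the modification of ribosomal RNA. The spliced exons are left as a noncoding transcript. Many host transcripts are exported, meet ribosomes and are removed by nonsense-mediated decay, and several begin with the pyrimidine tract that ribosomal protein transcripts also carry. MALAT1 and NEAT1 are made and kept in the nucleus, in nuclear speckles and paraspeckles, while NORAD is a cytoplasmic RNA known for its part in genome stability. MIR205HG and MIR222HG are the host transcripts of microRNAs, FTX lies in the X-inactivation centre and also hosts microRNAs, and OIP5-AS1 is a cytoplasmic noncoding RNA. By the RefSeq annotation 25 of the 37 members held at least 1 snoRNA. SNHG14 held 84, GAS5 11, SNHG1 9, SNHG17 5, SNHG12 4, and ZFAS1, SNHG29 and SNHG16 3 each. The 12 members that held none are called members without a snoRNA. Among these, SNHG10, SNHG20, SNHG21 and SNHG22 hold small Cajal body RNAs (scaRNAs) in the GENCODE annotation, so that group is not free of hosts of small RNAs.

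The starts of 8 members are shown, 4 with and 4 without the pyrimidine tract that hosts can share with ribosomal protein genes. Each sequence runs from 20 bases before to 30 bases after the start in RefSeq (build GRCh38.p14). Capitals mark a C followed by at least 4 pyrimidines at the start base, searched on the strand of the transcript, and other such runs in the windows are left in lower case. The windows were chr1:28581844-28581893 on the minus strand for SNHG12, chr6:85678704-85678753 on the minus strand for SNHG5, chr16:2155329-2155378 on the minus strand for SNHG19 and chr20:49278622-49278671 on the plus strand for ZFAS1. In these 4 hosts the tract began at the start base itself. Windows without a tract within 10 bases of the start were chr1:173869016-173869065 on the minus strand for GAS5, chr11:62855856-62855905 on the minus strand for SNHG1, chr20:36050931-36050980 on the minus strand for NORAD and chr15:41283970-41284019 on the plus strand for OIP5-AS1. The starts of GAS5, SNHG1, SNHG12 and ZFAS1 in GENCODE, at 173868882 for GAS5 and 62855914 for SNHG1, lie outside these windows. The windows of GAS5 and SNHG1 therefore do not show whether a tract stands at those other starts.
SNHG12: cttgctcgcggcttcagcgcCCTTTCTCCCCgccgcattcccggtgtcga
SNHG5: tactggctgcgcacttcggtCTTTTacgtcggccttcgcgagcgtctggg
SNHG19: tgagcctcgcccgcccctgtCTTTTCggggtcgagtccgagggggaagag
ZFAS1: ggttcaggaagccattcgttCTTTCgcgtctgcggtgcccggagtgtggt
GAS5: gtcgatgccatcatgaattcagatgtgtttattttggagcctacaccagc
SNHG1: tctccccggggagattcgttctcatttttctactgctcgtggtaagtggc
NORAD: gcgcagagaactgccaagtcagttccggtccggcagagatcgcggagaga
OIP5-AS1: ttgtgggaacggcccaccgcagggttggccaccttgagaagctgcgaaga

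A RefSeq promoter was at hand for 32 of the 37 members, with 33 starts. The tract stood at the start in 7 of 21 host promoters (33.3%), in 0 of 12 promoters of members without a snoRNA, in 47 of 78 ribosomal protein promoters (60.3%) and in 4.07% of all 35116 promoters. Within 10 bases of the start the shares were 76.2% for hosts, 25% for members without a snoRNA, 83.3% for ribosomal protein genes and 33.5% for all promoters. A match is a run of letters and not a measured start, and no match says only that these letters are not in the window. A G-quadruplex motif, 4 runs of at least 3 G with 1 to 7 bases between them on either strand, lay within 250 bases before to 50 bases after the start in 8 of the 33 member promoters (24.2%) and in 25% of all promoters.

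The microRNAs encoded by MIR205HG and MIR222HG are shown because MIR205HG had the widest range of the named members over populations and MIR222HG the largest change from 4 to 15% mitochondrial share. Capitals mark the seed, bases 2 to 8. The mature forms lie at chr1:209432166-209432187 on the plus strand for miR-205-5p, at chrX:45746180-45746202 on the minus strand for miR-221-3p and at chrX:45747036-45747056 on the minus strand for miR-222-3p, and the last pair share the seed GCUACAU. The counts are of the host transcripts, and mature microRNAs were not measured.
miR-205-5p: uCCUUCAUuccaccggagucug
miR-221-3p: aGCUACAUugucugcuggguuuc
miR-222-3p: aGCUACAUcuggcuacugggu

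Libraries 1 and 2 held the barcodes SBO01 to SBO06 and libraries 3 and 4 held SBO07 to SBO12, so the 4 libraries are 2 loads of each of 2 pools. The libraries held 5149 to 8792 cell barcodes and 139331790 to 179421284 gene UMIs, and 899 cell barcodes occurred in 2 or more libraries. Of 26247 cell barcodes 22147 had at least 1000 genes and at most 15% mitochondrial share, and 11072 of these carried a single SBO, in populations of 352 to 1864 cells. Another barcode had more UMIs in 782 of the 1227 cells of SBO12, so its assignment is doubtful. MIR205HG stood at 251 CPM in those and 204 CPM in the rest, and SNHG12 at 27.9 CPM in those and 41.4 CPM in the rest. Some cells of other populations had the same fault. Another barcode was higher in 157 of 525 cells of SBO11, 114 of 564 of SBO02, 58 of 352 of SBO04 and 103 of 1718 of SBO01. In SBO05 and SBO08 it was higher in 0 cells. All 8 mammary epithelial markers were at or above 1 CPM (counts per 1000000 gene UMIs), with summed levels of 1778 CPM in SBO05 to 12493 CPM in SBO09. Mesenchymal markers, of which 7 of 8 reached 1 CPM, summed to between 1027 CPM in SBO12 and 5294 CPM in SBO05. Leukocyte and endothelial markers reached 1 CPM in 2 of 8 and 2 of 7 genes, with the defining leukocyte genes MS4A1, CD3E and NKG7 at 0.

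Across the 12 barcode populations MIR205HG, SNHG12, SNHG1, SNHG32 and MALAT1 spread most among the members whose mean reached 20 CPM. The range is the difference between the highest and the lowest population on the log2(CPM + 1) scale. It was at least 1 for 9 of the 35 members whose mean reached 1 CPM, near the share of all such genes, 26.2%. Of the 21 members whose mean reached 20 CPM, 6 had such a range, against 15.7% of all such genes, and their median range was 0.78 against 0.50 for all. The labels name no separate cultures within a population, so no population value carries an error between cultures, and only the 2 loads of each pool can be compared. The median difference between the 2 loads of a population was 0.22 on the log2 scale for SNHG12, 0.16 for MIR205HG and 0.11 for GAS5.

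MIR205HG stood at 244.5 CPM in SBO01 and 233.5 CPM in SBO12, with a median of 115 CPM over the populations, and at 11.8 CPM in SBO05, which is 20.7-fold between the highest and the lowest. SBO05 was the population with the lowest epithelial and the highest mesenchymal marker sum. Without SBO05 the range of MIR205HG on the log2 scale fell to 1.42, against 4.26 with it. SNHG12 was highest in SBO10, at 165.5 CPM, followed by 146 CPM in SBO05 and 145 CPM in SBO08, and lowest in SBO01 and SBO12, at 34.4 and 33.0 CPM, an order that turns if SBO12 is held to the cells in which no other barcode was higher. Its loads differed by up to 1.01 on the log2 scale, in SBO11, where libraries 3 and 4 gave 110 and 53.9 CPM. The low pair SBO01 and SBO12 did not overlap any other population in either load, while the top 4 populations of SNHG12 overlapped between loads.

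**Figure D1:**
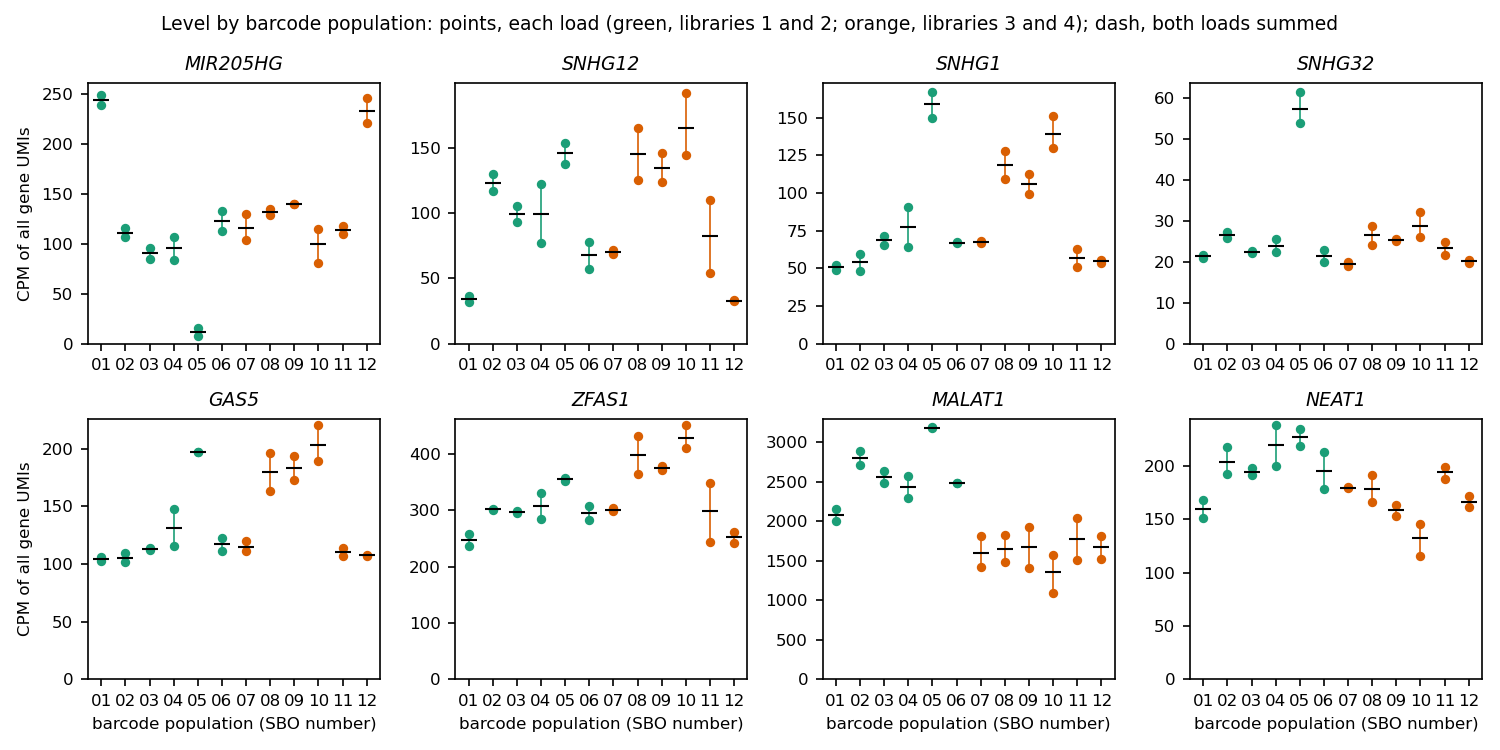
Level of 8 members in the 12 barcode populations, in CPM of all gene UMIs on axes that start at 0. Points are the 2 loads of a population and dashes both loads summed. MIR205HG stands lowest in SBO05, at 11.8 CPM, SNHG32 highest there, at 57.3 CPM, and MALAT1, with both loads summed, is higher in each of SBO01 to SBO06 than in any of SBO07 to SBO12.

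SNHG1 was at 159 CPM in SBO05, 139 CPM in SBO10 and 119 CPM in SBO08, and at 50.7 CPM in SBO01, which was the lowest. SNHG32, which hosts SNORD48 and SNORD52, stood at 57.3 CPM in SBO05 and at 28.7 CPM in SBO10, the next below, and its range of 1.51 fell to 0.54 without SBO05. GAS5, a multi-snoRNA host known for its regulation by growth arrest, stood at 203 CPM in SBO10, 197 CPM in SBO05 and 183 CPM in SBO09, and at 104 CPM in SBO01. ZFAS1 followed a like order at the top, with 429 CPM in SBO10, 398 CPM in SBO08 and 375 CPM in SBO09, and was lowest at 248 CPM in SBO01. EPB41L4A-AS1, which hosts SNORA13, was lowest in SBO12, at 14.0 CPM, and highest in SBO05, at 31.2 CPM. SNHG15 was lowest in SBO12 too, at 47.3 CPM, and highest in SBO08, at 96.0 CPM. Their ranges of 1.10 and 1.01 were 0.76 without SBO05 for the first and 0.89 without SBO12 for the second, so neither holds the bound of 1 in every setting. At the other end, SNHG30, SNHG16, OIP5-AS1, SNHG29, SNHG5, NORAD and SNHG6 were among the flattest members, with ranges of 0.40 to 0.60.

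The named snoRNA hosts shared top populations, most often SBO10 and SBO08. SBO10 was among the 4 highest populations for 17 of the 17 named hosts, SBO08 for 16, SBO09 for 12 and SBO05 for 11. Among all genes whose mean reached 20 CPM, 21.8% had SBO10 among their 4 highest, 20.5% SBO08, 24.2% SBO09 and 45.5% SBO05. SBO10 was also the highest population of 7 of the 24 named members, SNHG12, GAS5, SNHG8, SNHG5, SNHG7, SNHG11 and ZFAS1, where 5.08% of all such genes were highest there. It was the lowest for NEAT1, MALAT1, NORAD and FTX. SBO05 was highest for 6 named members, against 32.4% of all such genes, and lowest for MIR205HG, SNHG6, OIP5-AS1, SNHG16 and MIR222HG.

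Cells of low mitochondrial share, in which several hosts were higher, made up 5.38% of SBO10, 7.18% of SBO08, 5.07% of SBO09 and 1.23% of SBO05, against 14.2% in SBO02. Restricted to cells from 1 to 2%, SBO10 was among the 4 highest for 15 of the 17 hosts, SBO08 for 15, SBO09 for 14 and SBO05 for 11. In those cells SNHG12 was at 171 CPM in SBO10, GAS5 at 215 CPM, ZFAS1 at 445 CPM and SNHG8 at 151 CPM, each the highest of the 12, and MIR205HG again ran between 218 CPM in SBO01 and 9.87 CPM in SBO05. Levels within bins are per 1000000 non-mitochondrial UMIs.

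**Figure D2:**
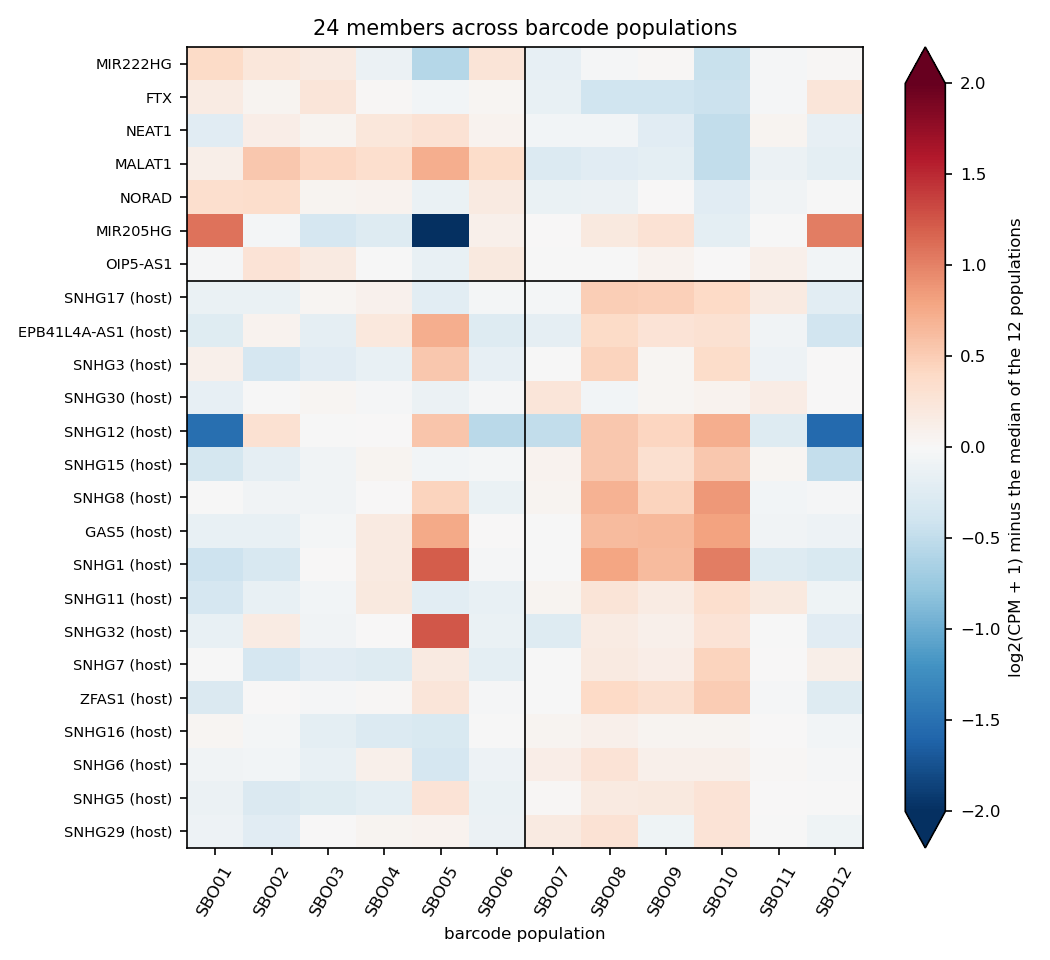
Difference of each of the 24 named members from its own median over the 12 barcode populations, on the log2(CPM + 1) scale. Members without a snoRNA are above the horizontal line and hosts below it, and the vertical line divides the 2 pools. Most hosts are redder in SBO08, SBO09 and SBO10, and SNHG12 is bluest in SBO01 and SBO12. SBO05 is mixed, reddest for SNHG3, EPB41L4A-AS1, SNHG32 and SNHG1 and bluest for SNHG6 and SNHG16.

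MALAT1 divided the 2 pools when both loads of a population were summed. It stood between 1361 CPM in SBO10 and 1777 CPM in SBO11, with a median of 1660 CPM, in SBO07 to SBO12, and between 2080 CPM in SBO01 and 3186 CPM in SBO05, with a median of 2519 CPM, in SBO01 to SBO06. By single loads the pools met, with SBO11 at 2038 CPM in library 3 and SBO01 at 2003 CPM in library 1. Summed, it was the single member whose populations did not overlap between the pools; 5.77% of all genes whose mean reached 20 CPM lay wholly lower in SBO07 to SBO12 and 1.66% wholly higher. NEAT1 was lowest in SBO10, at 132 CPM, and highest in SBO05, at 228 CPM, and its pools overlapped.

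Between whole libraries the members varied less than between populations. Of the 35 members whose mean reached 1 CPM, 0 differed by 1 or more on the log2 scale over the 4 libraries, where 1.42% of all such genes did, and the median range was 0.221 for the members and 0.217 for all genes. MALAT1 was at 1906 and 1474 CPM in libraries 3 and 4, and at 2440 and 2609 CPM in libraries 1 and 2. MIR205HG stood at 161 and 147 CPM in libraries 3 and 4, against 122 and 121 CPM in libraries 1 and 2. NEAT1 was lower in the second pool, with 175 and 170.3 CPM in libraries 3 and 4 and 191 and 204.5 CPM in libraries 1 and 2. The pools did not overlap for 26 of the 35 members, 15 higher and 11 lower in libraries 3 and 4, beside 66.4% of all such genes. Pool and library cannot be told apart from the samples the pools held.

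The comparison of cells by mitochondrial share used UMIs summed per library and bin, with mitochondrial genes left out of the totals. It had 1948 cells under 0.5%, 1274 cells from 4 to 15% and 10996 cells from 1 to 2%. The median depth was 12731 UMIs per cell under 0.5%, 7722 from 4 to 15% and 29525 from 1 to 2%, so the outer bins were shallower. Calls are at an adjusted p under 0.05 by the quasi-likelihood test of edgeR, blocked on library, with Benjamini-Hochberg adjustment over 15728 genes. SNHG27 and SNHG22 were too low to be tested. With library as the block, differences in level between libraries are taken out. The p-values measure how differences between bins vary over the libraries, which are 2 loads of each of 2 pools. They do not measure the spread between cultures.

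Cells from 4 to 15% mitochondrial share had more of the nuclear transcripts MALAT1 and NEAT1 than cells from 1 to 2%. The microRNA hosts MIR222HG, FTX and MIR205HG, and NORAD, were higher too. Most snoRNA hosts were lower relative to the median of all genes tested. Of the 35 members tested, 11 rose and 17 fell, 28 called in all, where 66.9% of all genes tested were called, 34.5% higher and 32.4% lower. The calls use TMM scaling, which sets the median gene near 0. With totals in its place the median of all genes moved to 0.53 on the log2 scale, against 0.03, 8836 genes were higher and 2195 lower, against 5432 and 5091, and of the members 17 were higher and 6 lower. In plain CPM the 4 libraries of the bins did not overlap for 15 members that were higher and 4 that were lower, beside 46.2 and 10.7% of all genes tested. Directions of hosts in this comparison are therefore relative to the median of all genes tested. Among genes with at least 20 CPM, the median in plain CPM moved only by 0.07 from 4 to 8% and by 0.16 from 8 to 15%. With total scaling the hosts had a median of 0.04, so beside genes of that level TMM scaling overstates their fall. The named hosts that turn with the scaling are given. SNHG19, singled out after its value was seen, adds a change from −0.49 with TMM to 0.0057 with total scaling.

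MALAT1 was at 10724, 12724, 7255 and 6822 CPM in libraries 1 to 4 in cells from 4 to 15%, against 2485, 2456, 1815 and 1409 CPM in cells from 1 to 2%. The higher bin lay above in each library without overlap, and the log2 fold change was 1.70 (SE 0.08, adjusted p = 3.59e-17, edgeR). NEAT1 was at 1113, 1352, 952 and 1105 CPM in cells from 4 to 15%, against 172, 175, 155 and 150 CPM in cells from 1 to 2%. It rose by 2.30 on the log2 scale (SE 0.08, adjusted p = 3.51e-19, edgeR), again without overlap. MIR222HG, which encodes miR-221 and miR-222, was at 97.1, 121, 67.4 and 64.4 CPM in cells from 4 to 15%, against 9.91, 9.18, 9.93 and 9.63 CPM in cells from 1 to 2%. Its log2 fold change of 2.68 (SE 0.10, adjusted p = 4.31e-19, edgeR) was the largest of the members. FTX was at 106, 116, 59.2 and 85.2 CPM in cells from 4 to 15%, against 13.6, 13.8, 12.5 and 11.9 CPM in cells from 1 to 2%, a log2 fold change of 2.33 (SE 0.08, adjusted p = 2.18e-19, edgeR). All 4 libraries were higher for these genes, and with total scaling their log2 fold changes were 2.19 for MALAT1, 2.79 for NEAT1, 3.17 for MIR222HG and 2.82 for FTX.

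NORAD was at 238, 286, 209 and 240.3 CPM in cells from 4 to 15%, against 90.4, 104, 88.0 and 85.0 CPM in cells from 1 to 2%, and its log2 fold change was 0.91 (SE 0.06, adjusted p = 4.71e-14, edgeR). MIR205HG rose by 0.40 (SE 0.09, adjusted p = 0.000377, edgeR), with 259, 204.5, 232 and 246 CPM in cells from 4 to 15% and 109, 112, 148 and 142 CPM in cells from 1 to 2%. OIP5-AS1 was not called, with a log2 fold change of 0.11 and an adjusted p of 0.060 by edgeR, and was called without library 3 (adjusted p = 0.0495, edgeR), without library 4 (0.0400) and under several other settings. Of the other members with a mean under 20 CPM, the snoRNA hosts SNHG14, SNHG26 and SNHG4 rose, by 2.13, 1.66 and 1.44, as did SNHG20, by 1.40. They are named after their values were seen, and SNHG4, SNHG20 and SNHG14 share strand and position with MATR3, SEC14L1 and SNRPN, so the counting of their reads is uncertain.

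**Figure D3:**
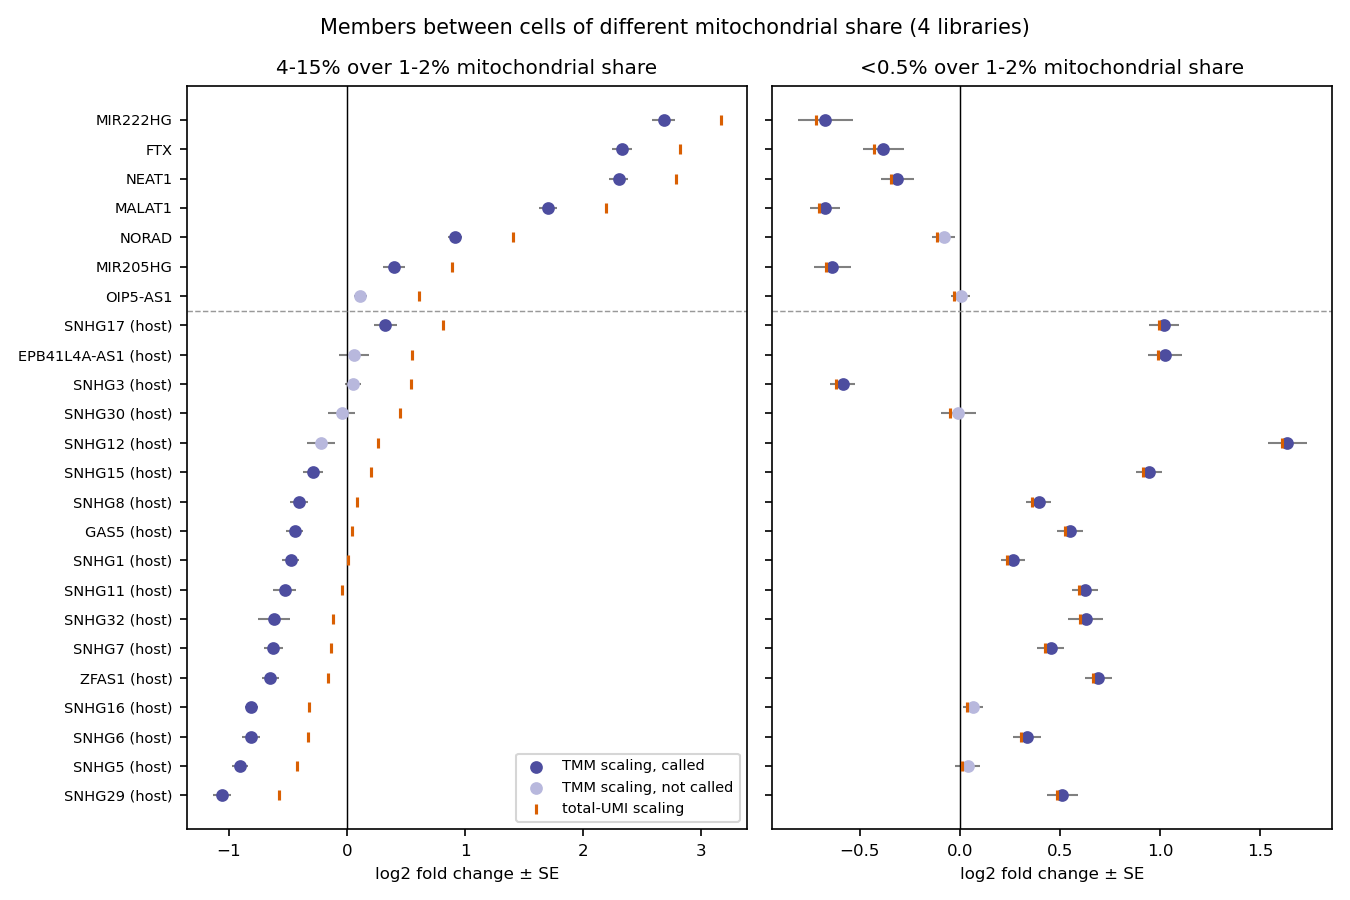
Log2 fold change with its standard error for the 24 named members, in cells from 4 to 15% over cells from 1 to 2% mitochondrial share (left) and in cells under 0.5% over cells from 1 to 2% (right), from 4 libraries. Dark points were called and pale points were not, with TMM scaling, and orange ticks give the value with total scaling. Members without a snoRNA are above the dashed line; on the left 6 of these 7 were called higher, and on the right none of the 7 was called higher. GAS5, SNHG1, SNHG8, SNHG12, SNHG15 and SNHG30 change sign on the left with total scaling.

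With TMM scaling most snoRNA hosts leaned the other way. Of the 25 hosts tested 4 rose, SNHG14, SNHG26, SNHG4 and SNHG17, and 15 fell, with a median log2 fold change of −0.44. Of the 10 members without a snoRNA 7 rose and 2 fell, with a median of 1.16. The 2 that fell, SNHG10 at −0.37 and SNHG21 at −0.41, hold a scaRNA each, as does SNHG20, which rose. With total scaling 9 hosts rose and 6 fell, with a median of 0.04, and 8 of the members without a snoRNA rose and 0 fell. Among named hosts SNHG29, SNHG5, SNHG16, SNHG6 and ZFAS1 fell under both scalings. SNHG29, host of SNORD49A, SNORD49B and SNORD65, was at 368, 356, 432 and 379 CPM in cells from 4 to 15%, against 564, 529, 613 and 575 CPM in cells from 1 to 2%, without overlap, and its log2 fold change was −1.06 (SE 0.08, adjusted p = 1.63e-12, edgeR), or −0.57 with total scaling. SNHG5 was at 214, 168, 215 and 212 CPM in cells from 4 to 15%, against 267, 262, 276 and 277.5 CPM in cells from 1 to 2%, a log2 fold change of −0.91, or −0.42 with total scaling. SNHG16 was at 146, 147, 163 and 152.5 CPM in cells from 4 to 15%, against 182, 182, 203 and 194.5 CPM in cells from 1 to 2%, a log2 fold change of −0.81, or −0.32 with total scaling. These 3 hosts were lower in all 4 libraries and their groups did not overlap.

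Other hosts moved with the scaling. GAS5, SNHG1, SNHG8 and SNHG15 fell by 0.44, 0.48, 0.40 and 0.28 with TMM scaling and stood at 0.04, 0.01, 0.08 and 0.20 with total scaling, where none was called. SNHG7, SNHG32 and SNHG11 fell by 0.62, 0.62 and 0.53 and lost their call with total scaling, at −0.14, −0.12 and −0.04. SNHG17 rose by 0.32 and was higher in all 4 libraries, at 68.9 to 81.1 CPM in cells from 4 to 15% against 38.7 to 48.9 CPM in cells from 1 to 2%. SNHG15 lost its call without library 2 (adjusted p = 0.0550, edgeR), and SNHG12 was called without library 3, at −0.29, and without library 4, at −0.33. SNHG3, SNHG12, EPB41L4A-AS1 and SNHG30 were not called, with log2 fold changes of 0.05, −0.22, 0.06 and −0.04, and with total scaling they stood at 0.54, 0.27, 0.55 and 0.45, where SNHG3, EPB41L4A-AS1 and SNHG30 were called higher. In plain CPM SNHG3 and EPB41L4A-AS1 were higher in all 4 libraries without overlap. SNHG3 lies on the strand of RCC1, so reads of this pair may not be told apart. SNHG12, ZFAS1, EPB41L4A-AS1, GAS5 and SNHG29 have annotated genes on the opposite strand, as do SNHG6, SNHG7, SNHG16 and SNHG30. How far strand separates the reads of those pairs was not tested.

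The ribosomal protein genes, whose products the guided ribosomal RNA joins, fell in 79 of 79 cases, with a median of −0.97, and in 77 with total scaling. All 4 genes of the box C/D and all 4 of the box H/ACA snoRNP proteins fell, of which 2 and 2 did with total scaling, when 1 C/D gene rose. Of 10 coding genes that host snoRNAs 0 rose and 7 fell, at a median of −0.51, among them RACK1 at −1.02 and EEF2 at −0.70, and with total scaling 4 rose and 4 fell. Of 10 genes of nonsense-mediated decay 6 rose and 1 fell, with SMG1 at 1.33 and UPF1 at 0.25, and all 10 rose with total scaling. Of 10 paraspeckle protein genes 1 rose and 6 fell, against 7 and 1 with total scaling, and of 10 nuclear speckle genes 2 rose, SON at 0.97 and SRRM2 at 0.37, and 5 fell, against 7 and 3. Of 12 stress and immediate early genes 2 rose, FOSB and EGR1, and 8 fell, against 5 and 2.

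**Figure D4:**
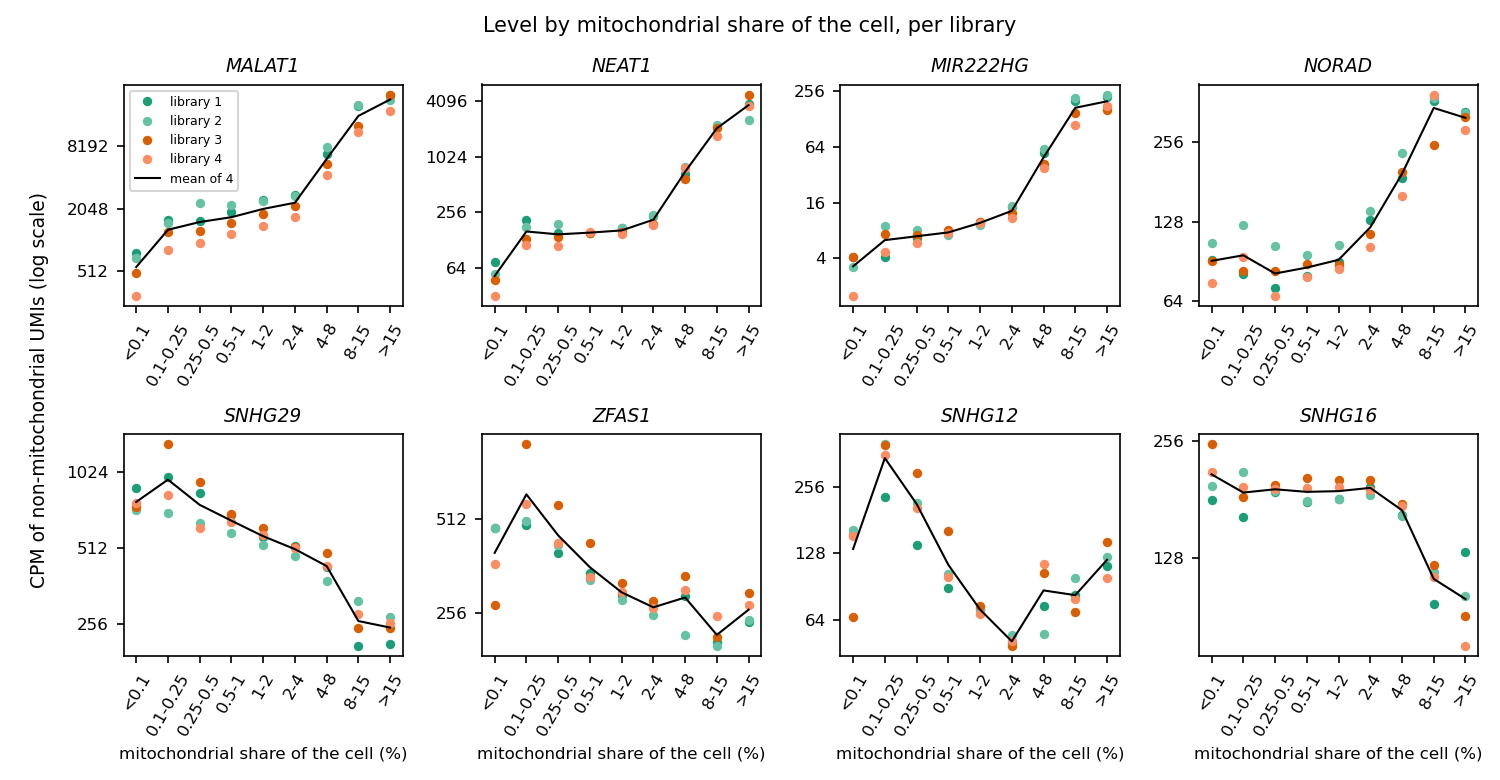
Level of 8 members in 9 bins of mitochondrial share, in CPM of non-mitochondrial UMIs on log axes, with 1 point per library and a line through the mean of 4. MALAT1, NEAT1 and MIR222HG climb above 4%, SNHG29 declines from its peak between 0.1 and 0.25%, SNHG16 is lowest above 8%, and SNHG12 peaks between 0.1 and 0.25%.

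Finer bins gave the course, with cells over 15% added. Mean MALAT1 was 561 CPM under 0.1%, then 1284, 1526, 1698, 2041 and 2342 CPM up to the bin from 2 to 4%, 6196 CPM from 4 to 8%, 16137 CPM from 8 to 15% and 23240 CPM above 15%. NEAT1 was level between 0.1 and 2%, at 148 to 163 CPM, lower under 0.1%, at 52.5 CPM, and higher from 8 to 15% and above, at 2075 and 3693 CPM. SNHG29 descended from its peak of 955 CPM between 0.1 and 0.25% to 248 CPM above 15%. SNHG12 peaked in the same bin, at 344 CPM, was lowest from 2 to 4%, at 51.3 CPM, and stood at 120 CPM above 15%. The median gene among those with at least 20 CPM moved by at most 0.16 on the log2 scale from the bin of 1 to 2%.

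Other quantities moved with these bins. Median UMIs per cell were 8371, 11437, 30300, 34103, 29525, 26586, 11785, 5667 and 3677 from the lowest bin to the highest, and their part in the levels was not tested. Summed mesenchymal markers were at 8195 to 13972 CPM over the libraries from 8 to 15%, against 1551 to 3243 CPM from 1 to 2%, with 3 of 8 genes higher and 2 lower in the test of 4 to 15%, and their part in the result was not tested. Epithelial markers summed to 7044 to 10057 CPM from 8 to 15%, against 8803 to 12338 CPM from 1 to 2%, and ribosomal protein genes to 72101 to 102576 CPM, against 185628 to 201792 CPM. Leukocyte markers summed to 15.4 to 21.8 CPM from 8 to 15%, against 15.8 to 27.5 CPM. With cells thinned to 5000 non-mitochondrial UMIs, MALAT1, NEAT1, MIR222HG, FTX, NORAD and SNHG29 kept their calls from 4 to 15%, at 1.88, 2.41, 2.88, 2.61, 1.05 and −1.06 on the log2 scale. Cells with fewer UMIs were left out there, so the thinned bins do not hold the same cells.

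In cells under 0.5% mitochondrial share many hosts were higher and every member without a snoRNA that was called was lower. Of 35 members 14 rose and 10 fell, 24 called, where 34.3% of all genes tested were called, 16.6% higher and 17.7% lower. Hosts gave 14 higher and 3 lower of 25, with a median log2 fold change of 0.34, and members without a snoRNA 0 higher and 7 lower of 10, with a median of −0.30, where the median of all genes was 0.0009. The scaRNA hosts SNHG10 and SNHG21 were among those 7, and SNHG20 was not called. Total scaling gave the same counts for hosts and for the others. In plain CPM the bins did not overlap for 11 members that were higher and 9 that were lower, beside 9.12 and 9.64% of all genes tested. Mesenchymal markers gave 1 higher and 5 lower of 8 in this test, with a median of −0.46, and epithelial markers 1 higher and 3 lower of 8, with a median of −0.14. Of the cells with a single barcode, SBO05 made up 3.92% under 0.5%, against 21.6% from 1 to 2%. Cells with several barcodes made up 13.2, 33.0 and 39.5% of the 3 finer bins under 0.5%, against 23.4% from 1 to 2%. The part of these in the result was not tested, beyond the fits with single barcodes and with population in the block.

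SNHG12 was at 156, 232, 281 and 222 CPM in libraries 1 to 4 in cells under 0.5%, against 71.6, 71.7, 74.2 and 68.1 CPM in cells from 1 to 2%. The bins did not overlap, and its log2 fold change of 1.63 (SE 0.10, adjusted p = 9.47e-13, edgeR) was the largest of the members. EPB41L4A-AS1 was at 33.0, 32.3, 38.0 and 36.9 CPM in cells under 0.5%, against 17.8, 19.2, 16.7 and 16.5 CPM in cells from 1 to 2%, a log2 fold change of 1.02 (SE 0.08, adjusted p = 4.62e-10, edgeR). SNHG17, which hosts SNORA71 genes, was at 67.7, 74.3, 113 and 99.7 CPM in cells under 0.5%, against 38.7, 40.3, 47.4 and 48.9 CPM in cells from 1 to 2%, a log2 fold change of 1.02 (SE 0.08, adjusted p = 6.17e-11, edgeR). These 2 hosts were higher in all 4 libraries without overlap.

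SNHG15 rose by 0.94, ZFAS1 by 0.69, SNHG32 and SNHG11 by 0.63, GAS5 by 0.55, SNHG29 by 0.51, SNHG7 by 0.45, SNHG8 by 0.39, SNHG6 by 0.34 and SNHG1 by 0.27. ZFAS1 was at 426, 450.4, 581 and 441 CPM in cells under 0.5%, against 292, 280.3, 319 and 298 CPM in cells from 1 to 2%, higher in all 4 libraries. GAS5 was at 144.5, 196, 216 and 201 CPM, against 126, 130, 136 and 129 CPM, with the smallest gap in library 1. SNHG5, SNHG16, SNHG30, OIP5-AS1 and NORAD were not called, with log2 fold changes between −0.08 and 0.06. SNHG3 was the named host that fell, by 0.59, in all 4 libraries.

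MALAT1 was at 1444, 1690, 1139 and 795 CPM in cells under 0.5%, against 2485, 2456, 1815 and 1409 CPM in cells from 1 to 2%, and fell by 0.67 (SE 0.08, adjusted p = 8.39e-08, edgeR). Each library was lower, although the bins overlapped across libraries. MIR222HG fell by 0.67, MIR205HG by 0.64, FTX by 0.38 and NEAT1 by 0.31. The call of NEAT1 was lost without library 4 (adjusted p = 0.065, edgeR), with cells of a single barcode (0.16) and with library and population as the block (0.15), and that of SNHG1 was lost with cells of a single barcode (adjusted p = 0.13, edgeR).

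Ribosomal protein genes did not follow the hosts here, with 13 higher and 4 lower of 79 and a median of 0.10, against 28 and 9 with total scaling. Coding genes that host snoRNAs gave 0 higher and 7 lower of 10, with HSPA8 at −0.53 and EIF4A1 at −0.51. Box C/D proteins gave 0 higher and 2 lower of 4, box H/ACA proteins 1 and 1 of 4, decay genes 2 and 2 of 10, paraspeckle genes 0 and 6, speckle genes 1 and 4, and stress genes 1, ATF3 at 0.99, and 8 of 12. In cells under 0.1% 64.7% carried no SBO and 22.2% a single one, against 23.1 and 53.5% in cells from 1 to 2%. With cells under 0.1% in place of under 0.5%, SNHG7 and SNHG11 lost their calls (adjusted p = 0.56 and 0.19, edgeR) and SNHG5 and SNHG16 were called, at 0.38 and 0.21.

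Within barcode populations the directions recurred for some members and not for others. MALAT1, NEAT1, MIR222HG, FTX, NORAD and MIR205HG were higher from 4 to 15% than from 1 to 2% in 12 of 12 populations, as were SNHG17 and OIP5-AS1, and SNHG29 was higher in 0 of 12, in CPM without TMM scaling. No such count over all genes was taken. With total scaling 8836 of the 15728 genes tested were higher and 2195 lower from 4 to 15%, so a rise there is common. Under 0.5% these were 2207 and 3235. Of the hosts called lower with TMM scaling, SNHG15 was higher in 8 of 12 populations, GAS5, SNHG1 and SNHG11 in 7 of 12 and SNHG32 in 6 of 12. MALAT1 had a median of 8444 CPM over the populations from 4 to 15%, between 5023 and 18274 CPM, against a median of 1791 CPM from 1 to 2%, between 1367 and 3104 CPM, so that the bins did not overlap. Under 0.5%, 11 populations had enough cells, and EPB41L4A-AS1, SNHG15, SNHG6, SNHG7, SNHG29, SNHG32 and ZFAS1 were higher in 11 of 11. SNHG12 was higher in 10 of 11, at 34.0 to 697 CPM under 0.5% against 33.9 to 171 CPM from 1 to 2% in the 12, and MALAT1 and MIR222HG in 0 of 11. The difference between the pools in these contrasts passed the test for 1 member, MIR222HG, in cells from 4 to 15%, where 0.312% of all genes did, and for 0 members under 0.5%, where 0.432% did.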

How the data were processed

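The authors deposited 1 matrix of raw UMI counts per mRNA library. Cell Ranger 6.0.2, Seurat 4.1.0, bcl2fastq 2.20.0.422 and the build hg38 are named in the submitters' processing notes. The members and gene lists were chosen with earlier results of these data known. A gene was named if the rule lists it, or if its symbol starts with SNHG and its mean over populations was at least 20 CPM. HTODemux (Seurat 5.3.0, positive quantile 0.99) gave each library's cells their barcode, over the barcodes highest in at least 1% of its kept cells, cells with several barcodes were left out of populations but kept in the bins, and no other doublet caller was run. Population levels are in CPM of all gene UMIs, and ranges use a pseudocount of 1 CPM. For bins, cells with at least 1000 genes were summed per library, with or without a barcode, and tested with edgeR 4.0.16 (filterByExpr, TMM, quasi-likelihood) at a false discovery rate of 0.05. The bins of 1 library come from the same cells' preparation, so library is the block. Standard errors are model estimates for the log2 fold change. DESeq2 1.42.0, other scalings, filters, blocks, thinning to 5000 UMIs and libraries left out in turn were the alternatives. Thinning left out cells with fewer than 5000 UMIs. The edgeR test was tried on simulated data. UMI counts were not divided by transcript length, so levels are compared within a gene. Annotation was GENCODE 29 and RefSeq GRCh38.p14. A few genes of the lists are not reported here by name.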

Additional observations from a re-analysis of the deposited data

Results flagged for a closer look

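The change of MIR222HG in cells from 4 to 15% against cells from 1 to 2% mitochondrial share differed between the pools, by −0.673 on the log2 scale in libraries 3 and 4 relative to libraries 1 and 2 (adjusted p = 0.0148, edgeR's quasi-likelihood test of the interaction). Its log2 ratios in plain CPM were 2.76 and 2.74 in libraries 3 and 4 and 3.29 and 3.72 in libraries 1 and 2, so it was higher in all 4. Pool cannot be told apart from the samples each pool held.

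Ratios between bins were taken by library for the 24 named members in both comparisons of mitochondrial share. For 5 of these changes 1 library lay far from the other 3, judged by the gap to its neighbour over the whole range (Dixon's ratio), and chance flags about 1 in 20 groups. Under 0.5% mitochondrial share these were GAS5, with a ratio of 0.850 and library 1 low at 0.19 against 0.60 to 0.67 on the log2 scale, SNHG6, with 0.836 and library 3 high at 0.48 against 0.23 to 0.27, and FTX, with 0.854 and library 3 nearest 0 at −0.17 against −0.51 to −0.46. From 4 to 15% they were SNHG30, with 0.844 and library 3 at −0.08 against 0.53 to 0.64, and SNHG11, with 0.917 and library 3 at −0.54 against 0.08 to 0.13.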

How the results depend on the processing

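Without the library as a replicate block, 2463 genes and 14 members (10 higher, 4 lower) were called under 0.5%, against 5390 and 24 with it. MALAT1 (adjusted p = 0.0519, edgeR), FTX, NEAT1, SNHG1, SNHG6 and SNHG8 then lost their calls there, and SNHG15 and SNHG17 (0.0995 and 0.113) from 4 to 15%. Called genes under 0.5% also fell to 2388 with thinned cells, to 3539 with library and population as the replicate block and to 3577 with cells under 0.1%, each with fewer genes tested, and without a filter on low counts 2041 were higher and 3682 lower. Leaving out a library gave 3634 to 4710 genes under 0.5% and 9622 to 10293 from 4 to 15%. Members with a range of at least 1 over populations were 9, but 5 with a pseudocount of 5 CPM and 20 with thinned cells. They were 11 when a cell took its highest barcode, with at least 10 UMIs and 3 times the next. The ranges of 11 of the 24 named members moved under that rule and 13 stayed the same. The bins under 0.1% and from 8 to 15%, total scaling, and leaving out SBO05 or SBO12 were chosen after seeing the data. SNHG27 and SNHG22 were too low in counts to be tested.

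The log2 fold changes that turned their sign follow, each after its own value. Under 0.5%, OIP5-AS1 (0.0051) was −0.0011 with DESeq2 size factors, −0.061 without the filter, −0.018 with the population block, −0.027 with total scaling and −0.020 to 0.032 with a library left out. SNHG5 (0.04) was −0.027 without the filter, −0.12 with single barcodes and −0.0031 with the population block, and SNHG16 (0.06) was −0.00094 without the filter. SNHG30 (−0.0080) was 0.022 with thinned cells, 0.017 with the population block and −0.22 to 0.083 with a library left out, and NORAD (−0.08) was 0.075 with thinned cells and 0.077 under 0.1%. From 4 to 15%, SNHG3 (0.05) was −0.074 without the filter, −0.021 with thinned cells and −0.00094 to 0.10 with a library left out. EPB41L4A-AS1 (0.06) was −0.067 without the filter, −0.11 with thinned cells, −0.042 to 0.11 with a library left out and −0.040 from 8 to 15%, and OIP5-AS1 (0.11) was −0.011 without the filter. SNHG30 (−0.04) was 0.13 with single barcodes, 0.26 with the population block (adjusted p = 0.034, edgeR), −0.098 to 0.067 with a library left out, 0.050 from 8 to 15% and 0.45 with total scaling. Total scaling also gave SNHG12 0.27, GAS5 0.043, SNHG8 0.082, SNHG15 0.20 and SNHG1 0.010. With the population block SNHG1 and SNHG15 lost their calls from 4 to 15% (adjusted p = 0.087 and 0.70, edgeR). The cause was not tested.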
